A study of Mus musculus with 9 samples.

Results

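The tumor necrosis factor (TNF) superfamily was examined across 3 dendritic cell subsets of the mouse spleen. Members were taken by gene symbol, as all rows of the deposited expression table named Tnfsf or Tnfrsf followed by a number, together with Tnf, Lta, Fas, Fasl, Cd27, Cd70 and Ngfr. The rule found 37 of the 14862 genes in the table, 14 ligands and 23 receptors, and Eda2r, which it also names, was not analysed here. RNA had been sequenced from 9 libraries of sorted spleen cells of C57Bl/6 mice aged 8 to 12 weeks, with 3 libraries of each subset and no treatment or genetic change given in the labels. The subsets were cDC1, the conventional dendritic cells that cross-present antigen to CD8 T cells, cDC2, which mainly prime CD4 T cells, and cells labelled mcDC, an abbreviation used in the field for merocytic dendritic cells and not expanded in the labels. Neither the sort markers nor the number of animals behind a library is stated in the sources used here. The p-values therefore reflect library-to-library variation, part of which may be technical.

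TNF superfamily ligands are mostly type II membrane proteins that act as trimers, on the cell or after shedding. Their receptors are mostly type I proteins with cysteine-rich repeats. Receptors with a cytoplasmic death domain, such as Fas and TNF receptor 1, can recruit adaptors that start apoptosis or necroptosis. Most others bind TRAF adaptors and activate NF-kappaB, and a few are decoys. In the spleen these genes shape the dialogue of dendritic cells with T and B cells through the OX40, 4-1BB, CD27, CD30, HVEM and BAFF systems, and lymphotoxin signalling maintains the splenic cDC2 pool.

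Library size and makeup set the limits for every value. The deposited values are RPKM, read counts scaled to gene length and to library size. The whole reads behind them came to between 9.68 and 11.01 M per cDC1 library, between 9.19 and 12.43 M per cDC2 library and between 5.14 and 8.22 M per mcDC library. mcDC replicate 3 stood apart from the other libraries, with 12.35% of all genes at 0 against 2.71% to 6.47% elsewhere, and a value of -80.0 on a second principal component where the others lay between -4.8 and 21.7. The subset markers followed the labels in cDC1 and cDC2. The summed RPKM of 7 cDC1 markers (Xcr1, Clec9a, Cd8a, Irf8, Tlr3, Cadm1, Itgae) was 1510 to 1870 in cDC1, 81.0 to 133 in cDC2 and 291 to 631 in mcDC, and that of 7 cDC2 markers (Sirpa, Clec4a4, Itgam, Irf4, Cd4, Esam, Clec10a) was 35.6 to 112, 637 to 648 and 266 to 471. Because these are sorted bulk samples, a lower level can mean fewer cells with a transcript or less of it per cell, and these cannot be told apart.

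Sequences just upstream of the transcription start are shown for 5 members whose RNA differed between subsets, Fas and Tnfrsf4, higher in cDC1 than in cDC2, Tnfsf14 and Tnfrsf13b, higher in cDC2 than in cDC1, and Tnfrsf9, highest in mcDC. Each is the 250 bases 5′ of an annotated start in RefSeq, assembly GRCm38.p6, written 5′ to 3′ on the strand of the gene, with the start following the last base. Capitals mark matches, on either strand, to an NF-kappaB consensus or to TGANTCA, an AP-1 site, which do not overlap each other in these windows. The Tnfrsf4 and Tnfrsf13b windows hold neither.
Fas (chr19:34290409-34290658, plus strand): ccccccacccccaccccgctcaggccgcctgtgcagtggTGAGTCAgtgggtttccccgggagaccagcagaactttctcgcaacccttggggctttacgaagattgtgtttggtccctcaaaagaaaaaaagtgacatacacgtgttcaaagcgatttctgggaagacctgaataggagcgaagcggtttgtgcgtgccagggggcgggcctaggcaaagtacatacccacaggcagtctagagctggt
Tnfrsf4 (chr4:156013445-156013694, plus strand): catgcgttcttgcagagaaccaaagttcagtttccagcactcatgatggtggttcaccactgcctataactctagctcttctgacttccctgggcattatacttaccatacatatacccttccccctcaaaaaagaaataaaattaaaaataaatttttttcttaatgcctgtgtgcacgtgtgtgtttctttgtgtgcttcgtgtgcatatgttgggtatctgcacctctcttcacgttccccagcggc
Tnfsf14 (chr17:57194182-57194431, minus strand): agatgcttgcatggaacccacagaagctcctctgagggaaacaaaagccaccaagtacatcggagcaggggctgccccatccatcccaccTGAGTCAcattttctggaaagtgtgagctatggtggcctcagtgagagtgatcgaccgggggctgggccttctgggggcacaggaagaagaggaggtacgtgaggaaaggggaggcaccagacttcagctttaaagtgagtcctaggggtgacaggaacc
Tnfrsf13b (chr11:61126505-61126754, plus strand): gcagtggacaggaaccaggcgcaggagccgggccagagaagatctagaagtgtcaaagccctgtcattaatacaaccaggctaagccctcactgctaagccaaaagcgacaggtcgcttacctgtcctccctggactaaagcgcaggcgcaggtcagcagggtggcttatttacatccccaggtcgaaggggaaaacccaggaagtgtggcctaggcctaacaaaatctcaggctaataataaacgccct
Tnfrsf9, the second of 2 annotated starts (chr4:150927749-150927998, plus strand): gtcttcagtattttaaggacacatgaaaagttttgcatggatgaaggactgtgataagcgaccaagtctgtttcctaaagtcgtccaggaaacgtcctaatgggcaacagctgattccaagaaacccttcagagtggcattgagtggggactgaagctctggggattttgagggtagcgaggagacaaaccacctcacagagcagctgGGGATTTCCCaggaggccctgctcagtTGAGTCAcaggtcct
The AP-1 match begins 211 bases before the start in Fas and 160 bases before it in Tnfsf14. In Tnfrsf9 the NF-kappaB match begins 42 bases and the AP-1 match 15 bases before the start. The window of its other annotated start held neither, and which start these cells use was not tested. The windows of Tnfsf8, Tnfrsf1a, Tnfrsf1b, Cd27 and Tnfrsf23, members also called but not shown, held neither. Over the 33 promoters listed for 29 of the 37 members, 6 held an AP-1 match (18.2%) and 1 an NF-kappaB match (3.03%), beside 6.75% and 0.98% of all 32851 listed promoters. GAGGAAGT, a PU.1 site also searched on both strands, was in 1 member promoter (3.03%, 2.44% of all), and a composite of ETS and IRF sites was in 0 of 33 (2.3% of all). The AP-1 match thus lay upstream of both Fas and Tnfsf14, whose RNA differed in opposite directions between cDC1 and cDC2.

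Differences between subsets involved a minority of the superfamily. Differences were tested with limma on log2(RPKM + 1) in 1 fit of all genes above 1 RPKM in at least 2 libraries, with Benjamini-Hochberg adjustment over the 11971 genes tested and a threshold of 0.05. Of the 37 members 29 passed this filter, 9 ligands and 20 receptors, and 10 were called in at least 1 comparison. Between cDC1 and cDC2, 9 of 29 members were called, 4 higher and 5 lower in cDC1, where 19.6% of all genes tested were called, 8.85% higher and 10.7% lower. Between mcDC and cDC1, 5 of 29 were called (17.2%), 3 higher and 2 lower in mcDC, near the 15.4% of all genes, of which 9.53% were higher and 5.88% lower. Between mcDC and cDC2, 4 of 29 were called (13.8%), 3 higher and 1 lower in mcDC, with 3.66% of all genes called, 2.06% higher and 1.6% lower. The libraries of the subsets compared did not overlap for 17, 9 and 14 of the 29 members in these comparisons, beside 46.1%, 30.5% and 21.6% of all genes. With mcDC replicate 3 left out, limma called 12, 9 and 6 of 29 members, against 29.4%, 22.0% and 4.37% of all genes. The median log2 fold change of the 29 members was 0.07, 0.19 and -0.02 in the 3 comparisons, and that of all genes tested was -0.02, 0.09 and 0.06. The comparisons share libraries, so the counts are not independent of each other.

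**Figure D1:**
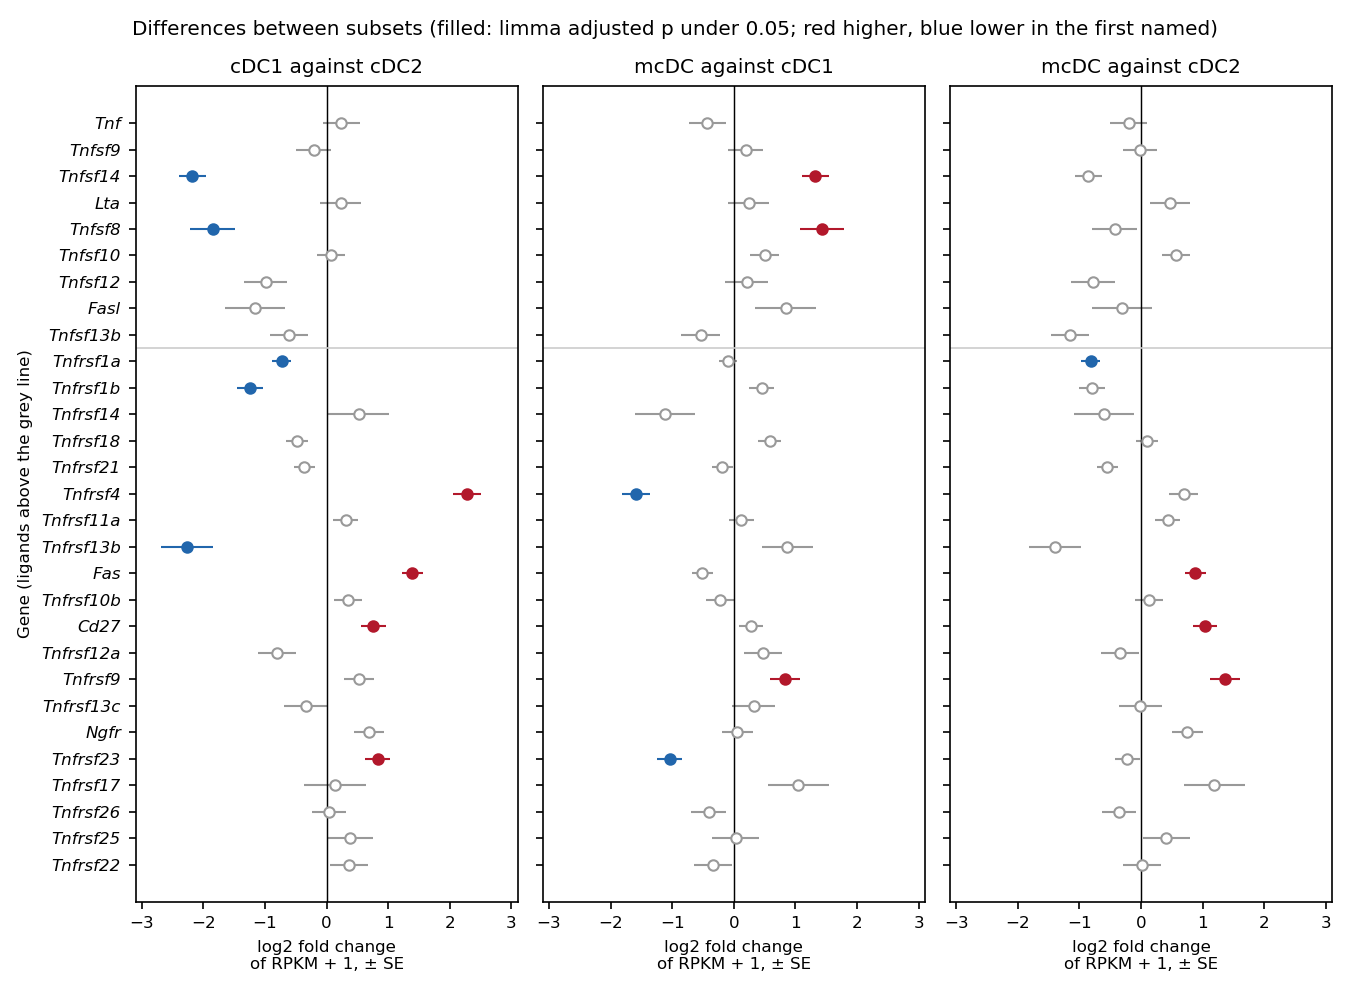
Log2 fold change of RPKM + 1 with its standard error for the 29 members tested, in cDC1 against cDC2, mcDC against cDC1 and mcDC against cDC2. Filled points passed the limma threshold, 9, 5 and 4 of 29, red where higher and blue where lower in the first named subset.

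In each subset a few transcripts made up most of the superfamily's level. Tnf itself, the founding cytokine, had the highest mean of any member in cDC1 (78.2 ± 13.8 RPKM, SD, n = 3) and in mcDC (60.3 ± 25.4), and Tnfrsf1b, TNF receptor 2, had the highest in cDC2 (89.6 ± 6.85). A mean of at least 10 RPKM in some subset was reached by 11 members, 2 ligands and 9 receptors. The 8 members that failed the filter, the ligands Tnfsf15, Tnfsf13, Cd70, Tnfsf4 and Tnfsf18 and the receptors Tnfrsf11b, Tnfrsf8 and Tnfrsf19, reached at most 3.24 RPKM and 47 reads in any library. In mcDC replicate 3, 10 of the 37 members were listed at 0, against 1 to 6 in each other library.

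**Figure D2:**
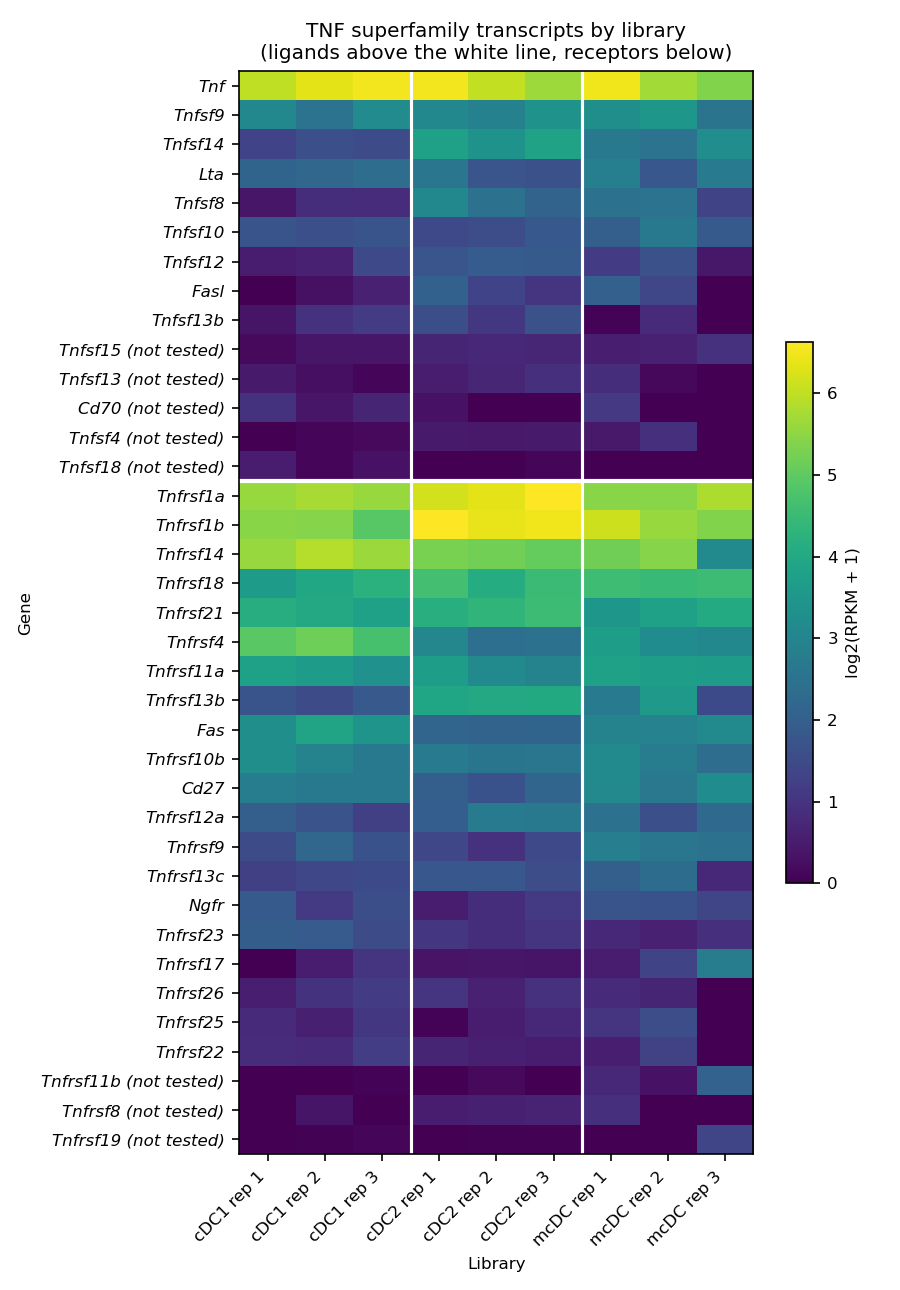
Log2(RPKM + 1) of all 37 members in each of the 9 libraries, with the 14 ligands above and the 23 receptors below the white line, each ordered by mean RPKM. Tnf, Tnfrsf1a and Tnfrsf1b are bright throughout, and the last column, mcDC replicate 3, has 10 members at 0.

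Among the ligands, Tnfsf14 and Tnfsf8 were lower in cDC1 than in both other subsets, and Tnf was not called in any comparison. Tnfsf14 (Entrez gene 50930) encodes LIGHT, which binds HVEM and the lymphotoxin beta receptor. In replicates 1, 2 and 3 it was at 1.51, 2.09 and 1.88 RPKM in cDC1, at 12.9, 9.56 and 13.2 in cDC2, and at 5.39, 4.71 and 8.52 in mcDC. The 3 subsets did not overlap, with mcDC between the conventional subsets. The log2 fold change was -2.18 ± 0.22 (SE) in cDC1 against cDC2 (limma adjusted p = 0.00013) and 1.32 ± 0.22 in mcDC against cDC1 (0.0038), which are means 6.52 times as high in cDC2 and 3.4 times as high in mcDC as in cDC1. Against cDC2 mcDC was at -0.86 ± 0.22 and did not pass (adjusted p = 0.075), but it passed without mcDC replicate 3 (-1.08, adjusted p = 0.012).

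Tnfsf8 (21949) encodes the CD30 ligand, whose receptor marks activated lymphocytes. It was at 0.326, 0.814 and 0.787 RPKM in cDC1, from 8, 20 and 17 reads, at 7.46, 4.52 and 3.35 in cDC2, and at 4.63, 4.76 and 1.57 in mcDC. All cDC1 libraries lay below all others, while cDC2 and mcDC overlapped. cDC1 was lower than cDC2 by a log2 fold change of -1.85 ± 0.36 (limma adjusted p = 0.0051), and mcDC higher than cDC1 by 1.43 ± 0.36 (0.025). The second call was lost when any 1 of cDC1 replicates 1, 2 and 3 or mcDC replicates 1 and 2 was left out, with adjusted p = 0.08, 0.068, 0.066, 0.06 and 0.078, as it was in a fit of only these groups (0.054), and its adjusted p ranged from 0.0023 to 0.08 over all settings tried. mcDC against cDC2 did not pass (-0.43 ± 0.36, adjusted p = 0.59).

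Tnf (21926) was at 63.2, 81.0 and 90.4 RPKM in cDC1, at 89.4, 63.6 and 49.2 in cDC2, and at 88.9, 51.7 and 40.2 in mcDC. The subsets overlapped, and the mcDC libraries alone spanned nearly the whole range of the gene. Its log2 fold changes were 0.24 ± 0.30 in cDC1 against cDC2 (limma adjusted p = 0.68), -0.43 ± 0.30 in mcDC against cDC1 (0.38) and -0.20 ± 0.30 in mcDC against cDC2 (0.79). Its chromosomal neighbour Lta (16992), lymphotoxin alpha, ranged from 2.15 to 6.23 RPKM over the 9 libraries without a call. Tnfsf9 (21950), the ligand of 4-1BB, ranged from 4.72 to 10.4 RPKM and also overlapped between all subsets.

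The remaining ligands were low. Tnfsf10 (22035), the death ligand TRAIL, was at 2.22 ± 0.13 RPKM in cDC1, 2.08 ± 0.387 in cDC2 and 3.68 ± 1.48 in mcDC, where its lowest library lay above every other one, with adjusted p = 0.19 against cDC1 and 0.25 against cDC2 (limma). Tnfsf12 (21944), TWEAK, was at 0.429, 0.535 and 1.77 RPKM in cDC1 and at 2.37, 2.82 and 2.66 in cDC2, with 1.22, 2.12 and 0.344 in mcDC. cDC1 and cDC2 did not overlap, and its log2 fold change of -0.99 ± 0.35 missed the threshold (adjusted p = 0.08). The difference passed in 6 of 18 other settings. Among these were leaving out cDC1 replicate 3 (0.041) or mcDC replicate 3 (0.022) and a fit of only these groups (0.021). Quantile normalization (0.042) and a test on the recovered reads (0.046) also gave the call. Fasl (14103), the ligand of Fas, was at 0, 0.234 and 0.533 RPKM in cDC1, at 3.15, 1.52 and 0.997 in cDC2, and at 3.08, 1.67 and 0 in mcDC. It rested on at most 10 reads in a cDC1 library and 0 to 56 elsewhere. The difference between cDC1 and cDC2 did not pass (-1.16 ± 0.49, adjusted p = 0.14, and 0.02 without mcDC replicate 3). For mcDC against cDC1 it was 0.84 ± 0.49 (adjusted p = 0.29), and 1.42 without mcDC replicate 3 (0.018). Tnfsf13b (24099), the B cell survival factor BAFF, was at 0.304, 0.948 and 1.21 RPKM in cDC1, at 2.0, 1.12 and 2.15 in cDC2, and at 0.0507, 0.751 and 0 in mcDC, from 1, 10 and 0 reads there. The mcDC libraries lay below all cDC2 libraries, without a call (adjusted p = 0.082). Tnfsf4 (22164), OX40 ligand, and Tnfsf18 (240873), the ligand of GITR, reached at most 0.893 and 0.44 RPKM, and Tnfsf18 was listed at 0 in all 3 mcDC libraries.

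The receptors of TNF and Fas, which carry or share the death-domain pathway, split between the conventional subsets. Both TNF receptors were higher in cDC2 and Fas was higher in cDC1. Tnfrsf1a (21937), TNF receptor 1, was at 47.6, 53.6 and 47.6 RPKM in cDC1, at 71.1, 81.1 and 97.8 in cDC2, and 42.3, 42.6 and 55.3 in mcDC. Every cDC2 library lay above the others, while cDC1 and mcDC overlapped. On the log2 scale the difference was -0.73 ± 0.15 in cDC1 against cDC2 (limma adjusted p = 0.0076) and -0.82 ± 0.15 in mcDC against cDC2 (0.018). The second was lost without cDC2 replicate 2 (0.086), cDC2 replicate 3 (0.084) or mcDC replicate 2 (0.066) and in a fit of only these groups (0.071), with 0.0074 to 0.086 over all settings tried.

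Tnfrsf1b (21938), TNF receptor 2, which lacks a death domain and prefers membrane-bound TNF, was at 42.5, 41.9 and 28.7 RPKM in cDC1, at 97.1, 83.7 and 88.1 in cDC2, and at 68.8, 47.9 and 40.2 in mcDC. cDC2 stood above the other libraries, and mcDC overlapped cDC1. cDC1 was lower than cDC2 by a log2 fold change of -1.25 ± 0.21 (limma adjusted p = 0.0025). For mcDC against cDC2 the value was -0.80 ± 0.21 and did not pass (adjusted p = 0.078), but it passed without mcDC replicate 1 (0.015) and under median-of-ratios scaling (0.043).

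Fas (14102), the receptor through which activated T cells can kill, was at 8.77, 13.5 and 9.85 RPKM in cDC1, at 3.50, 3.32 and 3.39 in cDC2, and at 6.81, 6.68 and 7.87 in mcDC. The 3 subsets were in separate ranges, and the cDC2 libraries lay close together. The log2 fold change was 1.39 ± 0.17 in cDC1 against cDC2 (limma adjusted p = 0.00042) and 0.88 ± 0.17 in mcDC against cDC2 (0.025). The second call was lost without cDC2 replicate 1 (0.077), 2 (0.12) or 3 (0.1) or mcDC replicate 2 (0.058), with quantile normalization (0.051) and in a test on the recovered reads (0.077). mcDC against cDC1 was at -0.51 ± 0.17 and did not pass (adjusted p = 0.08), but passed without mcDC replicate 3 (0.046) and under median-of-ratios scaling (0.038).

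Of the other death-domain receptors none was called. Tnfrsf21 (94185), death receptor 6, was at 14.8 ± 1.84 RPKM in cDC1, 19.3 ± 2.70 in cDC2 and 10.4, 12.8 and 15.7 in the mcDC libraries, and its difference of mcDC from cDC2 passed only without mcDC replicate 3 (-0.69, limma adjusted p = 0.048). Tnfrsf10b (21933), the mouse TRAIL receptor, ranged from 4.15 to 8.85 RPKM with overlap between all subsets. Ngfr (18053), the p75 neurotrophin receptor, was at 2.64, 1.20 and 2.0 RPKM in cDC1 and 2.28, 2.16 and 1.60 in mcDC, above the 0.415, 0.84 and 1.18 of cDC2, with adjusted p = 0.092 and 0.16. Tnfrsf25 (85030), death receptor 3, stayed at or below 1.94 RPKM.

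Among the TRAF-binding receptors, Tnfrsf4 was highest in cDC1, Tnfrsf13b in cDC2 and Tnfrsf9 in mcDC. Tnfrsf4 (22163) encodes OX40, best known as a costimulatory receptor of activated T cells. It was at 29.5, 35.1 and 24.9 RPKM in cDC1, from 279 to 447 reads, at 7.34, 4.36 and 4.59 in cDC2, and at 12.0, 8.40 and 7.57 in mcDC. No pair of subsets overlapped, with cDC1 far above mcDC and mcDC just above cDC2. The log2 fold change was 2.28 ± 0.23 in cDC1 against cDC2 (limma adjusted p = 0.00011), a mean 5.49 times as high, and -1.59 ± 0.23 in mcDC against cDC1 (0.0015). Both calls held under each of the 19 other settings tried, with adjusted p up to 0.001 and 0.011. mcDC against cDC2 did not pass (0.69 ± 0.23, adjusted p = 0.15). Its neighbour on the chromosome, Tnfrsf18 (21936), which encodes the T cell costimulatory receptor GITR, did not follow it. Tnfrsf18 was at 11.6, 14.3 and 17.7 RPKM in cDC1, at 23.9, 16.3 and 22.0 in cDC2, and at 22.7, 21.2 and 22.2 in mcDC. All mcDC libraries lay above those of cDC1, with a log2 fold change of 0.58 ± 0.18 that missed the threshold (adjusted p = 0.057) and passed without cDC1 replicate 3 (0.045).

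Tnfrsf13b (57916) encodes TACI, a receptor for BAFF and APRIL known from B cells. It was at 2.30, 1.93 and 2.61 RPKM in cDC1, at 14.2, 14.9 and 15.3 in cDC2, and at 5.5, 10.8 and 1.81 in mcDC. cDC2 lay above all other libraries within a narrow range, and mcDC spread from the cDC1 level upwards, with 34, 45 and 7 reads. The log2 fold change was -2.27 ± 0.42 in cDC1 against cDC2 (limma adjusted p = 0.0038), a mean 6.49 times as high in cDC2. mcDC did not pass against cDC1 (0.87 ± 0.42, adjusted p = 0.2) or cDC2 (-1.40 ± 0.42, 0.11). It passed against cDC1 without mcDC replicate 3 (1.42, adjusted p = 0.003) and against cDC2 without mcDC replicate 2 (0.029). The related BAFF receptor Tnfrsf13c (72049) was at 1.61 ± 0.207 RPKM in cDC1, 2.30 ± 0.273 in cDC2 and 2.59 ± 1.71 in mcDC. It passed in mcDC against cDC1 without mcDC replicate 3 (log2 fold change 0.79, adjusted p = 0.014) and not with it (0.32 ± 0.35, 0.6).

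Tnfrsf9 (21942), 4-1BB, a costimulatory receptor of T and NK cells also carried by some dendritic cells, was at 6.07, 5.10 and 4.55 RPKM in mcDC, at 1.88, 3.59 and 2.18 in cDC1, and at 1.66, 0.937 and 1.74 in cDC2. Each mcDC library lay above the other 6. The log2 fold change was 1.36 ± 0.24 in mcDC against cDC2 (limma adjusted p = 0.013), lost only without cDC2 replicate 2 (0.079), and 0.83 ± 0.24 in mcDC against cDC1 (0.04). The difference from cDC1 lost its call under 14 of 19 settings, with adjusted p from 0.029 to 0.14. Among these were leaving out cDC1 replicate 1 (0.12) or 3 (0.14), cDC2 replicate 1 (0.062), 2 (0.05, just above the threshold) or 3 (0.061), and mcDC replicate 1 (0.086) or 2 (0.079).

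Cd27 (21940), the receptor of CD70 on T, B and NK cells, was at 5.99, 5.35 and 5.37 RPKM in cDC1, at 3.03, 2.20 and 3.47 in cDC2, and at 7.63, 5.24 and 8.38 in mcDC. cDC2 lay below the other subsets, which overlapped. Its log2 difference was 0.76 ± 0.20 in cDC1 against cDC2 (limma adjusted p = 0.026) and 1.04 ± 0.20 in mcDC against cDC2 (0.023). The first was lost without cDC1 replicate 1 (0.077), 2 (0.074) or 3 (0.071) or cDC2 replicate 1 (0.065) or 2 (0.12). The second was lost without cDC2 replicate 1 (0.067), 2 (0.12) or 3 (0.057) and in a fit of only these groups (0.09).

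Markers of other cell types were also measured, without a test between subsets. The summed RPKM of 7 NK cell markers (Ncr1, Klrb1c, Klrk1, Gzma, Prf1, Eomes, Tbx21) was 103, 155 and 214 in mcDC, against 65.6 to 87.1 in cDC1 and 59.4 to 82.0 in cDC2. For 8 T cell markers (Cd3d, Cd3e, Cd3g, Cd2, Cd5, Lck, Cd28, Bcl11b) it was 42.0 to 62.9 in mcDC, 31.7 to 58.4 in cDC1 and 20.7 to 32.7 in cDC2, so that mcDC and cDC1 overlapped. The T cell markers differed among themselves. Cd3e, Cd3g and Bcl11b had their highest mean in cDC1, Cd5 in cDC2, and Cd3d, Cd2, Lck and Cd28 in mcDC. For 6 macrophage markers, among them Adgre1 and C1qa, the summed RPKM was 209 to 274 in mcDC, at most 62.3 in cDC1 and 131 to 143 in cDC2. Adgre1 alone of these had its highest mean in cDC2, at 91.2 RPKM against 51.8 in mcDC and 4.34 in cDC1. No marker of these lists was at 0 in all libraries of a subset. In mcDC replicates 1, 2 and 3, in the order of the NK sums above, Tnfrsf9 was at 6.07, 5.10 and 4.55 RPKM. In the same order Cd27 was at 7.63, 5.24 and 8.38 RPKM, Tnfrsf18 at 22.7, 21.2 and 22.2, and Fasl at 3.08, 1.67 and 0. The part of these cells in the values of Tnfrsf9, Cd27, Tnfrsf18 and Fasl was not tested.

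The sums of neutrophil and of monocyte markers were highest in cDC2 and varied between its libraries. Of the monocyte markers Csf1r, Fn1, F13a1 and Lyz2 had their highest mean in cDC2. Ly6c2 did not, at 22.7 RPKM against 36.5 in cDC1 and 33.2 in mcDC, nor did Ccr2, at 118 against 123 in mcDC. The summed RPKM of 7 neutrophil markers (S100a8, S100a9, Ngp, Camp, Retnlg, Csf3r, Cxcr2), of which Camp was at 0 in all mcDC libraries, was 149, 891 and 1520 in the 3 cDC2 libraries, against 14.8 to 40.3 in the other 6, and that of 6 monocyte markers (Ly6c2, Ccr2, Csf1r, Fn1, F13a1, Lyz2) was 947, 1570 and 1940, against 144 to 514. In the same libraries Tnfrsf13b was at 14.2, 14.9 and 15.3 RPKM, Tnfrsf1b at 97.1, 83.7 and 88.1, and Tnfsf14 at 12.9, 9.56 and 13.2, while Tnfrsf1a was at 71.1, 81.1 and 97.8. Each of these 4 was above every cDC1 library in cDC2 replicate 1. The neutrophil and monocyte sums of that library, 149 and 947, were the lowest of cDC2 but still above the other 6 libraries. The part of neutrophils and monocytes in these values was not tested.

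**Figure D3:**
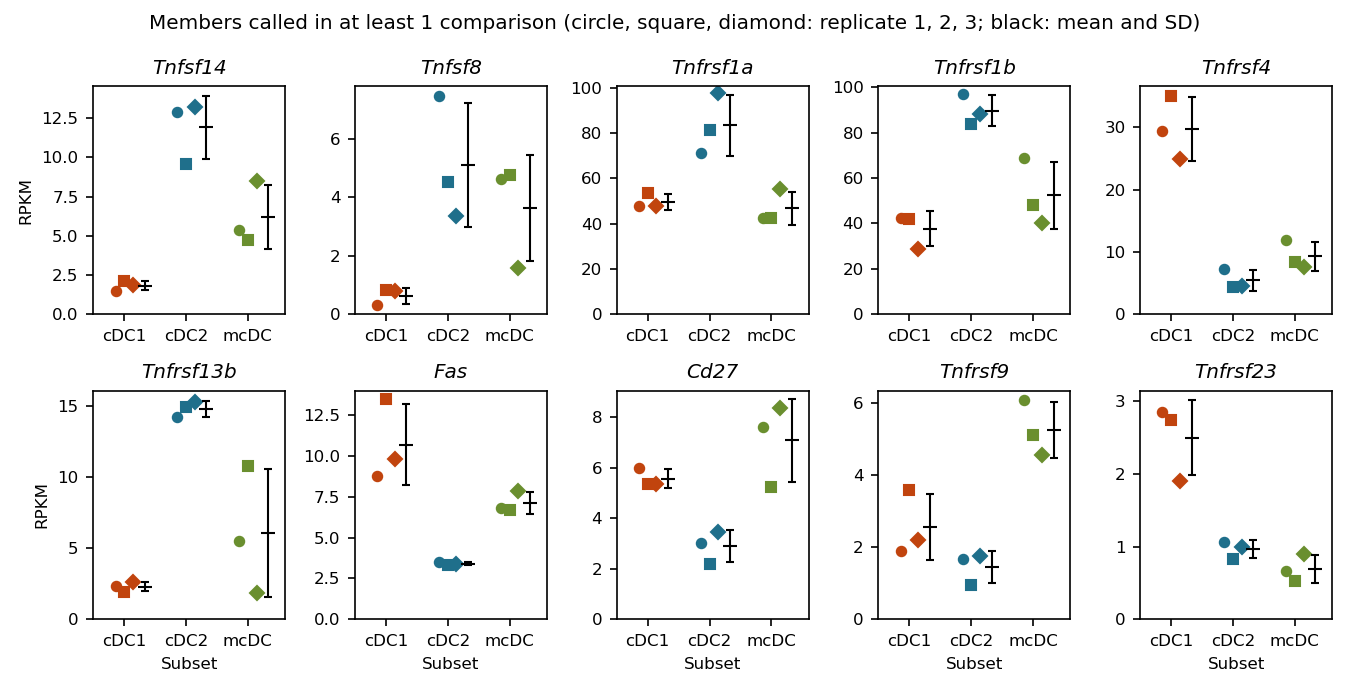
RPKM of the 10 members called in at least 1 comparison, by subset, with each library as a point (circle, square and diamond for replicates 1, 2 and 3) and the mean and SD of 3 libraries in black. Tnfsf14, Tnfrsf1b and Tnfrsf13b peak in cDC2, Tnfrsf4 and Fas in cDC1, and Tnfrsf9 in mcDC.

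The rest of the TRAF-binding group gave no call. Tnfrsf14 (230979), HVEM, was at 47.9, 57.8 and 48.7 RPKM in cDC1, at 38.2, 35.9 and 32.4 in cDC2, and at 35.6, 42.0 and 7.83 in mcDC, the last from 36 reads. cDC1 lay above all other libraries, and mcDC replicate 3 lay far below the rest and enters the shared error. For cDC1 against cDC2 it differed by 0.52 ± 0.49 (limma adjusted p = 0.56) with that library and 0.52 without it (0.0086). Tnfrsf11a (21934), RANK, was at 11.2 ± 1.86 RPKM in cDC1, 8.99 ± 2.70 in cDC2 and 12.2 ± 0.653 in mcDC. Tnfrsf12a (27279), the TWEAK receptor Fn14, was at 2.22 ± 0.811 RPKM in cDC1, 4.67 ± 1.51 in cDC2 and 3.51 ± 1.33 in mcDC, with adjusted p = 0.11 between the conventional subsets.

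Tnfrsf22 and Tnfrsf23, which encode mouse decoy receptors of TRAIL, lie side by side with Tnfrsf26 on chromosome 7. Tnfrsf23 (79201) was at 2.85, 2.74 and 1.90 RPKM in cDC1, at 1.06, 0.825 and 0.996 in cDC2, and at 0.665, 0.518 and 0.895 in mcDC. cDC1 was above the others, by a log2 fold change of 0.83 ± 0.20 against cDC2 (limma adjusted p = 0.016) and mcDC was lower than cDC1 by -1.04 ± 0.20 (0.0068). The first was lost without cDC1 replicate 1 (0.056) or 2 (0.079) or cDC2 replicate 2 (0.079) or 3 (0.057). Tnfrsf22 (79202) and Tnfrsf26 (244237) were not called, at 0.956 ± 0.316 and 0.895 ± 0.414 RPKM in cDC1. Tnfrsf22 and Tnfrsf23 are close paralogs whose reads the authors' counting could have split, so their values are uncertain.

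Ligand and receptor levels could be set side by side for the known partners. In cDC1 Tnfrsf4 far exceeded its ligand, at 29.8 ± 5.11 RPKM where Tnfsf4 was at 0.0615 ± 0.0642, from at most 2 reads. For HVEM and LIGHT cDC1 had means of 51.5 and 1.82 RPKM, cDC2 of 35.5 and 11.9, and mcDC of 28.5 and 6.21. Tnfsf8 stood above its receptor Tnfrsf8 (21941) in cDC2, at 5.11 against 0.49 RPKM, and in mcDC, at 3.65 against 0.283. Tnfsf9 and Tnfrsf9 were at 8.05 and 5.24 RPKM in mcDC, at 7.92 and 1.45 in cDC2 and at 6.82 and 2.55 in cDC1. These are levels per gene length without a test between genes.

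**Figure D4:**
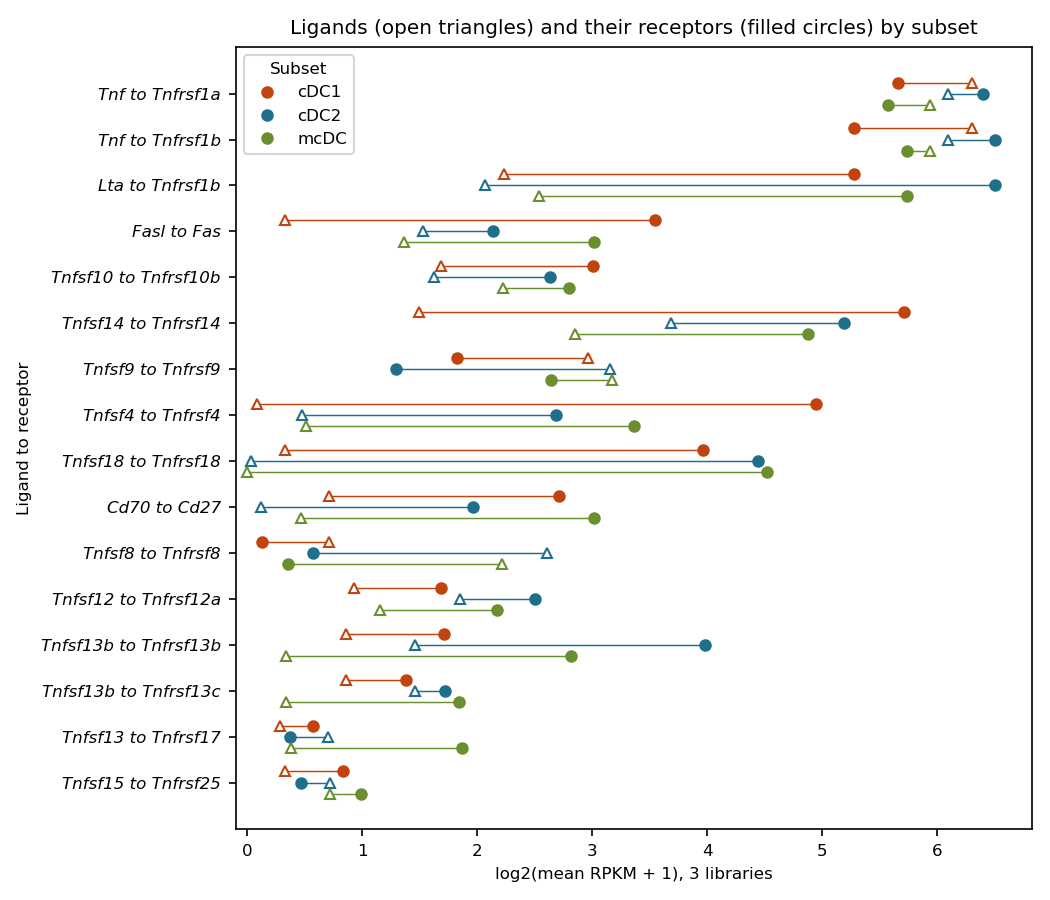
Mean level, as log2(mean RPKM + 1) over 3 libraries, of ligands (open triangles) and their receptors (filled circles) in each subset, joined by a line for each pair. The longest lines include Tnfsf4 to Tnfrsf4 in cDC1, while Tnf and its receptors lie close together at the high end.

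Members also sit next to each other in the genome. In the reference gene table Tnf lies between Lta and Ltb, Tnfsf9, Cd70 and Tnfsf14 follow one another, and so do Tnfsf4, Tnfsf18 and Fasl, Tnfrsf4 and Tnfrsf18, Tnfrsf1b and Tnfrsf8, Tnfsf15 and Tnfsf8, and Tnfsf12 and Tnfsf13, with no other coding gene between. Neighbours could have unlike levels. Tnfsf14 was at 11.9 RPKM in cDC2 where Cd70 was at 0.0861, and Tnfrsf1b was at 89.6 where Tnfrsf8 was at 0.49. Tnfsf18 and Fasl had like means in cDC1, 0.259 and 0.256 RPKM, from at most 10 reads in a library. They were unlike in cDC2, at 0.026 and 1.89, and in mcDC, at 0 and 1.58. Whether the authors' counting used strand is not given in the sources used here, nor is its treatment of reads at the border of neighbours. Reads at the border of Tnfsf12 and Tnfsf13, for example, may have been assigned to either.

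Family members outside the naming rule and the signalling genes downstream were counted from lists. Of 7 further family names 5 were in the table and tested, 1 higher and 3 lower in cDC1 than in cDC2, 2 higher and 2 lower in mcDC than in cDC1, and 0 called in mcDC against cDC2, where 19.6%, 15.4% and 3.66% of all genes were called (limma, with 1 at an unadjusted p under 0.05, and likewise 0 and 1 in a test on the recovered reads). Ltb (16994), lymphotoxin beta, was at 80.3, 30.4 and 39.5 RPKM in cDC1, at 190.0, 167 and 140.0 in cDC2, and at 190.0, 153 and 154 in mcDC. All cDC1 libraries lay below the others, with a log2 fold change of -1.82 ± 0.30 against cDC2 (limma adjusted p = 0.0021). Relt (320100), a TRAF-binding receptor, was at 19.8 ± 2.81 RPKM in cDC1, 62.7 ± 3.61 in cDC2 and 43.0 ± 11.5 in mcDC (-1.62 ± 0.20 for cDC1 against cDC2, 0.00035). Eda (13607), ectodysplasin, was at 1.01 ± 0.0118 RPKM in cDC1 and at most 0.0852 in any other library (0.94 ± 0.18, 0.0055). Ltbr (17000), the receptor of lymphotoxin and LIGHT, was lower in cDC1 than in cDC2 (24.1 ± 0.556 against 34.9 ± 3.92 RPKM, 0.023), and Cd40 (21939), which receives T cell help, was lower in mcDC than in cDC1 (36.3 ± 3.72 against 54.8 ± 8.00, 0.018).

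Of 45 signalling genes, all tested, 4 were higher and 3 lower in cDC1 than in cDC2, and 3 were higher and 2 lower in mcDC than in cDC1, where 19.6% and 15.4% of all genes were called. With mcDC replicate 3 left out, 12 and 9 of the 44 then tested were called, beside 29.4% and 22.0% of all genes. Against cDC2 mcDC had 0 calls by limma and by the test on the recovered reads, with 4 at an unadjusted p under 0.05 in the former. Nfkb1 (18033), the p105 and p50 NF-kappaB subunit, was at 89.7 ± 27.7 RPKM in cDC1, 213 ± 12.9 in cDC2 and 178 ± 44.2 in mcDC, lower in cDC1 than in cDC2 (log2 fold change -1.28 ± 0.23, limma adjusted p = 0.0039) and higher in mcDC than in cDC1 (0.99 ± 0.23, 0.02). Otulin (432940), which removes linear ubiquitin, was also lower in cDC1 than in cDC2 (-0.68 ± 0.15, 0.013), and Relb (19698), an NF-kappaB subunit of the alternative pathway, was higher in mcDC than in cDC1 (0.77 ± 0.20, 0.028). Of the death genes Bid (12122), a BCL2-family link to mitochondria, was higher in cDC1 than in cDC2 (0.63 ± 0.16, 0.02), and Casp8 (12370), the initiator at death receptors, was lower (-0.47 ± 0.13, 0.027). The adaptors with the highest levels, Traf1 (22029) and Birc3 (11796), were at 107 to 119 and 88.2 to 110 RPKM on average in the 3 subsets without a call. The 5 genes of shedding and cleavage, among them the TNF sheddase Adam17 (11491) at 31.1, 33.2 and 30.4 RPKM on average, gave 0 calls by limma in all 3 comparisons, with 0, 0 and 1 at an unadjusted p under 0.05 and the same counts in the test on the recovered reads. Without mcDC replicate 3 Adam10 was called lower in cDC1 than in cDC2, 1 of 4 then tested.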

How the data were processed

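RNA from 9 libraries was analysed. The authors deposited RPKM values, whose unit the file headers do not give. The unit was checked from the steps between values, which gave whole reads for 100% of 14862 genes (tolerance 0.001). These reads are the smallest whole numbers that give the deposited values. The library kit is a directional one per the labels' protocols, and the genome build is mm8, per the submitters' processing notes. The aligner, counting tool and annotation are not stated in what was used here. Each of 8 single-library files held the values of its column, mcDC replicate 3 was read from the table of all libraries, and 0 columns were of other samples.

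RPKM values were taken as log2(RPKM + 1) and fitted with limma 3.58.1 in R 4.3.3 over all 9 libraries and 11971 genes above 1 RPKM in at least 2 libraries, with a trend in the prior variance. The fitting procedure was tested on simulated data. Fold changes on this scale understate those of low genes. Members called, or with a mean of at least 10 RPKM in a subset, are given by library or by mean and SD. For other lists, up to 4 called and 2 uncalled genes of each could be named. The members and lists were chosen with earlier results of these data known. Replicate numbers follow accession order and were not used to pair libraries. Promoters and gene order came from RefSeq GRCm38.p6, whose gene table matched 37 of 37 members, and mm8 coordinates were not used here. Some genes and marker lists are not reported here. Tables were handled in Python 3.11.15 with pandas 2.3.3 and numpy 2.4.6, and figures drawn with matplotlib 3.10.9. Alternatives were other pseudocounts, filters, scalings, fits of 2 groups, no variance trend, a block for the title run and each library left out. After the data were seen, voom on the recovered reads, which is the test on the recovered reads named in the results, and the block without mcDC replicate 3 were added.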

Additional observations from a re-analysis of the deposited data

How the results depend on the processing

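The count of members called between cDC1 and cDC2 (9) ranged from 7 to 13 over the 19 settings tried. Between mcDC and cDC1 (5) it was 2 with a filter of 5 RPKM, 3 in a fit of only these groups, 12 without mcDC replicate 3 and blocked by title run, and 3 to 9 with single libraries left out. Between mcDC and cDC2 (4) a fit of only these groups gave 2, and the count was 0 to 6 with single libraries left out, the 0 without cDC2 replicate 2 (limma, 10 at an unadjusted p under 0.05). The filter of 5 RPKM left 17 members to test, and the cause of the other changes was not tested.

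Library titles run in consecutive numbers, each run of 3 holding 1 library of every subset. Over 8358 genes with a mean above 5 RPKM, deviations from the group means correlated by 0.071 to 0.553 in the 9 pairs of the same run and by -0.548 to 0.014 in others, and 9 of 9 libraries correlated best with their own run. As the lowest pair is under 0.1 and nothing in the labels states what runs have in common, the libraries were not treated as paired. With the title run as a replicate block 9, 5 and 6 members were called, with Tnfsf14 (adjusted p = 0.045) and Tnfrsf1b (0.017) gained in mcDC against cDC2, and Tnfrsf18 (0.042) gained and Tnfrsf9 (0.053) lost in mcDC against cDC1, and 16, 12 and 0 genes of the family and signalling lists in place of 11, 9 and 0.

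Of 18 calls of a member in a comparison, 10 held under every setting in which the member was tested, and no called value changed sign. The members that lost or gained a call did so in 44 and 39 of 1597 values recomputed. Over all genes the median difference of mcDC from cDC1 was 0.09 on the log2 scale, and -0.03 with median-of-ratios scaling. Depth limits the members below 1 RPKM, where 1 read per kilobase is worth 0.0805 to 0.1946 RPKM.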

Other observations

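Some low members had their highest value in mcDC replicate 3, the shallowest library. Tnfrsf17 (21935), the plasma cell receptor BCMA, was at 0.448, 1.55 and 5.98 RPKM in mcDC, at 0, 0.447 and 1.02 in cDC1 and at 0.268, 0.32 and 0.297 in cDC2, and did not pass limma in any comparison (adjusted p = 0.2 for mcDC against cDC1 and 0.27 against cDC2). Without mcDC replicate 1 mcDC passed against cDC1 (log2 fold change 1.56, adjusted p = 0.039) and, just under the threshold, against cDC2 (1.7, 0.05 after rounding). The plasma cell gene Jchain was at 85.6, 197 and 274 RPKM in the same mcDC libraries, at 32.2, 69.3 and 143 in cDC1 and at 13.3, 13.3 and 29.8 in cDC2. The summed RPKM of 4 plasma cell markers (Sdc1, Jchain, Derl3, Prdm1) was 91.7, 205 and 285, then 34.2, 74.2 and 148, then 17.6, 16.9 and 34.8. Tnfrsf17 was thus highest in the library with the highest sum, and the part of plasma cells in its values was not tested. Tnfrsf11b (18383), the decoy receptor osteoprotegerin, and Tnfrsf19 (29820), known from epithelial and neural tissue, were at 3.24 and 1.59 RPKM in that library, from 47 and 39 reads. Tnfrsf11b reached at most 0.689 RPKM elsewhere, and Tnfrsf19 at most 0.0648.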
